A study of Mus musculus with 10 samples.

Results

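The genes described here encode the structural proteins of the liver's extracellular matrix: the collagens, the laminins, and the basement membrane and elastic fibre proteins that join them. They were chosen by gene type and name, as every protein-coding gene called Col with an a-chain number, every Lama, Lamb or Lamc gene, and Nid1, Nid2, Hspg2, Fn1, Tnc, Eln, Fbln1, Fbln2, Fbln5, Efemp1 and Efemp2. This gave 58 of the 19414 genes in the table, namely 36 collagen chains, 11 laminin chains and 11 other proteins. Expression was measured by bulk RNA sequencing of poly-A selected RNA from the livers of 10 female mice of the HET3 stock, in which crosses of inbred strains make every animal genetically distinct. The Longevity diet group held 5 of them (LD_405, LD_406, LD_442, LD_513 and LD_515), fed for 5 months on a diet that the series title calls methionine-supplemented. The standard diet group held the other 5 (SD_403, SD_500, SD_501, SD_502 and SD_646), fed a standard diet for the same 5 months. Their age was 25 months per the labels, which leave unclear if feeding began or ended then, and which give neither the composition of the diets nor a batch, cage or day of collection. Wherever a value is given for each mouse, the mice follow the order of these lists.

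Fibrillar collagens such as types I, III and V assemble into the fibres that carry tension, and fibril-associated collagens such as type XIV sit on the surface of those fibres. Basement membranes are thin sheets built from a laminin network and a collagen IV network, which nidogens and the heparan sulphate proteoglycan perlecan join together. In the normal liver the stellate cells, portal fibroblasts and vessel walls make most of the fibrillar collagen. Hepatocytes make fibronectin and collagen XVIII, and the sinusoids lack the continuous basement membrane that lines vessels elsewhere. More collagen I and III and a continuous sheet of collagen IV and laminin along the sinusoids are the textbook signs of liver fibrosis. Protein was not measured here.

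Values are CPM, reads per 1000000 reads on the genes of the table. The estimated depth was 30.0 ± 6.47 M reads (M, 1000000) on the Longevity diet and 42.5 ± 4.35 M on the standard diet (mean ± SD, n = 5 mice each; two-sided exact permutation test, p = 0.0159). Albumin, a plasma protein of hepatocytes, was the most abundant gene in each library, at 11.1% to 16.1% of CPM on the Longevity diet and 6.26% to 11.2% on the standard diet. The shares overlapped, with LD_406 at 11.1% and SD_502 at 11.2%. Testing was limited to 13157 genes averaging 1 CPM or more across all mice. Their median log2 difference between the diets (Longevity diet minus standard diet, on log2(CPM + 0.1)) was -0.11. The diets were compared with limma and Benjamini-Hochberg adjustment over those 13157 genes, and a gene is said to have risen or fallen where its adjusted p was under 0.05. Of the 58 members, 38 passed the minimum of 1 CPM and 20 did not. The minimum was set on the mean of both diets together, so a member could pass through high values on 1 diet alone. Col4a3 (1.06 CPM) and Col6a6 (1.28 CPM) lay just above it, and Col6a5 (0.988 CPM) and Fbln1 (0.908 CPM) just below it.

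Fn1 and Col18a1 made up most of the matrix RNA of these livers on either diet. Divided by the length of the longest coding transcript, Fn1, which encodes fibronectin, stood at 138 CPM per kb over the 10 mice, and Col18a1, the source of endostatin, at 133 CPM per kb. Col14a1 came next at 5.53 CPM per kb, followed by Efemp1 (3.66), Col3a1 (3.51) and Hspg2 (3.06 CPM per kb). Lama3, a laminin chain of epithelial basement membranes, was lowest at 0.00987 CPM per kb. Fn1 and Col18a1 together held 87.0 ± 0.826% of the members' summed CPM on the Longevity diet and 84.0 ± 5.46% on the standard diet. The remaining 56 members summed to 249.9 ± 52.2 CPM on the Longevity diet (197 to 303 CPM) and 363 ± 54.0 CPM on the standard diet (276 to 419 CPM). Those sums overlapped, since SD_646, the lowest standard diet mouse, lay below LD_442 and LD_513.

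**Figure D1:**
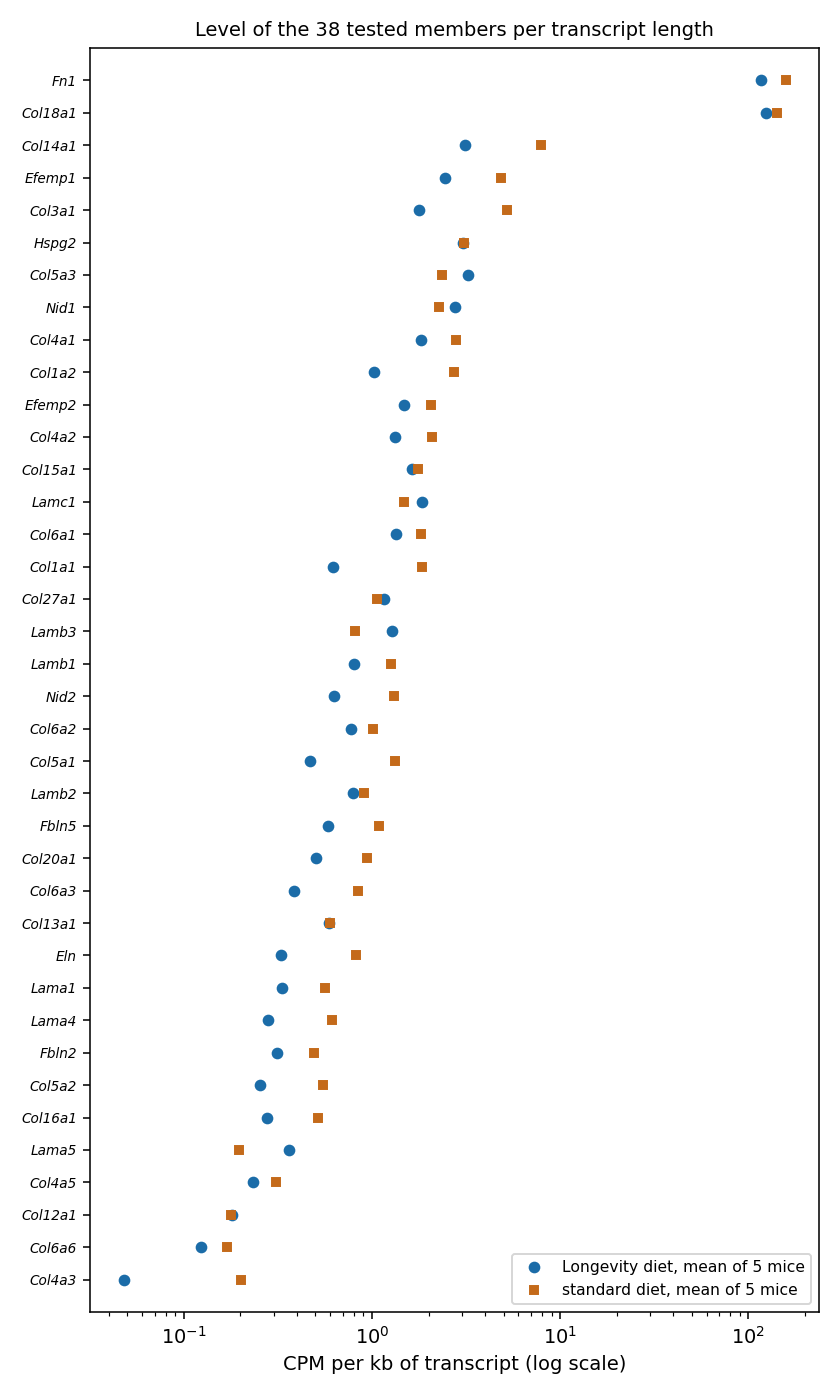
Mean level of each of the 38 tested members per kb of its longest coding transcript (x axis, CPM per kb, log scale), with Longevity diet and standard diet means drawn as separate points. Fn1 and Col18a1 stand far to the right of the other members, and Col4a3 is lowest by the mean of all 10 mice.

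Of the 38 members tested, 2 fell on the Longevity diet and 0 rose. The 2 were Col5a1 and Col14a1, 5.26% of the members tested, where 1.23% of all 13157 genes fell and 0.661% rose (1.89% in either direction). By unadjusted p under 0.05, 15 members were lower and 1, Lama5, was higher on the Longevity diet. That is 39.5% of the members lower, against 11.6% of all genes, and 2.63% higher, against 5.92%. The log2 difference was below 0 for 30 of 38 members (78.9%), against 60.4% of all genes, and its median over the members was -0.52, against -0.11 over all genes. In 5 members (13.2%) every Longevity diet value lay below every standard diet value, namely Col5a1, Col14a1, Efemp1, Fbln5 and Lama4, against 3.49% of all genes. In 0 members did every value lie above, against 2.01% of all genes. The median log2 difference was -0.65 for the 22 collagens tested, -0.24 for the 7 laminins and -0.46 for the 9 other proteins. Among roles it was lowest for the 7 fibrillar collagens (-1.35), and the single laminin gamma chain tested had 0.26. Scaling shifted these values: under quantile normalization, which brought the median over all genes to 0.00, the members' median was -0.35, and under median-of-ratios scaling it was -0.41. In bulk tissue, fewer cells of a type and less RNA per cell cannot be told apart, which holds for every difference given here.

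**Figure D2:**
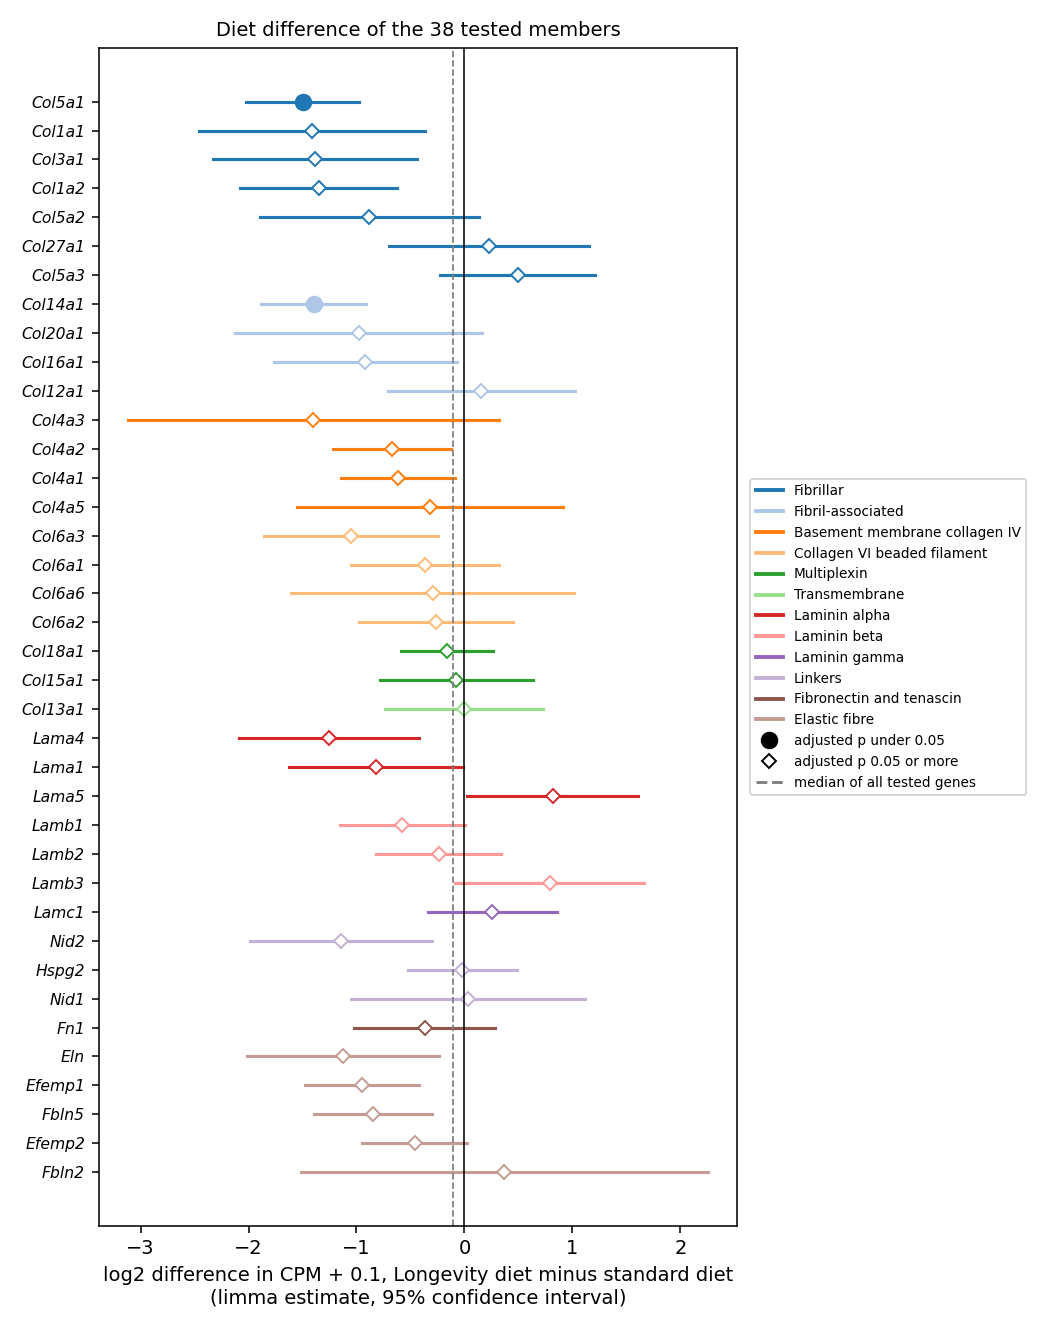
Log2 difference between the diets (x axis, Longevity diet minus standard diet, on log2(CPM + 0.1)) for the 38 members tested, grouped by role, with 95% confidence intervals as bars. Col5a1 and Col14a1 are the members that passed the threshold, and 30 of the 38 points lie below 0.

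Among the fibrillar collagens, Col5a1 fell and the 2 chains of collagen I and the single chain of collagen III were lower by a like amount without passing the threshold. Col5a1 (chr2:27776437-27929526, plus strand, mm39) encodes the alpha 1 chain of type V collagen, a minor fibrillar collagen that starts and limits the thickness of collagen I fibrils. It had 3.87, 2.91, 5.38, 4.57 and 2.89 CPM in Longevity diet mice, against 13.9, 12.0, 10.9, 9.16 and 9.46 CPM in standard diet mice. All 5 Longevity diet mice lay below all 5 standard diet mice, and no single mouse stood apart within either diet. The means were 3.92 ± 1.08 CPM on the Longevity diet and 11.1 ± 1.93 CPM on the standard diet (SD, n = 5 each), a 2.83-fold lower level on the Longevity diet, with a log2 difference of -1.50 (SE 0.24, 95% confidence interval -2.02 to -0.98, adjusted p = 0.00974). The RefSeq promoter windows of Col5a1 (chr2:27886175-27886474, plus strand) and Col1a2 (chr6:4505368-4505667, plus strand) on GRCm38.p6 are shown because these 2 members had the lowest adjusted p among the fibrillar chains. Each window runs from 250 bases before to 50 bases after the annotated start, and capitals mark the GC box GGGCGG and the CCAAT box, on either strand, the binding motifs of Sp1-type and NF-Y factors.
Col5a1: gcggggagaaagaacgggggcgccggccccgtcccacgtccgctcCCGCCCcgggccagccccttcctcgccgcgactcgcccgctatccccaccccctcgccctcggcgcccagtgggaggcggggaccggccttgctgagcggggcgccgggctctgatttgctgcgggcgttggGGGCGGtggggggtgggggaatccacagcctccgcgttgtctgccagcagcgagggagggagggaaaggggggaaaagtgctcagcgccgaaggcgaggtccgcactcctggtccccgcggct
Col1a2: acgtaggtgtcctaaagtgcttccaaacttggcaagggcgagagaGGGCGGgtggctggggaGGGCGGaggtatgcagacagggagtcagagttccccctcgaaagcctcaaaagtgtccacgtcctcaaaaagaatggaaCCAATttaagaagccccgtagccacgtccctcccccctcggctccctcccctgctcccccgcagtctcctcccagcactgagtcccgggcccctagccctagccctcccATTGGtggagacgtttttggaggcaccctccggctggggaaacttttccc
The Col5a1 window holds 2 GC boxes and 0 CCAAT boxes, and the Col1a2 window holds 2 of each. The GC box was found in 68% of the 50 windows of 42 members and in 35.7% of all 32851 windows, and the CCAAT box in 28% of member windows and 37.4% of all windows. These matches describe letters only, and binding was not measured.

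Col1a1 and Col1a2 encode the 2 chains of collagen I, the main fibrillar collagen of scar tissue. Col1a1 (chr11:94827050-94843868, plus strand) had 3.07, 1.58, 2.99, 7.21 and 3.46 CPM in Longevity diet mice, against 5.23, 22.0, 17.5, 5.13 and 5.16 CPM in standard diet mice. In SD_500 and SD_501 it stood at 22.0 and 17.5 CPM, while the other 3 standard diet mice lay within the Longevity diet range, below LD_513. Its log2 difference was -1.41 (SE 0.49, adjusted p = 0.155). Col1a2 (chr6:4504814-4541544, plus strand) had 7.02, 3.11, 4.95, 7.87 and 4.54 CPM in Longevity diet mice, against 12.9, 23.9, 18.9, 7.74 and 9.88 CPM in standard diet mice. SD_500 and SD_501 were again highest, and only LD_513 lay above the lowest standard diet mouse, SD_502. The Col1a2 means were 5.50 ± 1.93 CPM on the Longevity diet and 14.6 ± 6.64 CPM on the standard diet, with a log2 difference of -1.35 (SE 0.34, adjusted p = 0.0630). Col3a1, whose product forms the fine reticular fibres of the liver, had 9.42, 4.04, 12.2, 12.2 and 11.3 CPM in Longevity diet mice, against 11.7, 39.4, 60.1, 14.8 and 19.9 CPM in standard diet mice. The highest Col3a1 levels were those of SD_501 and SD_500, the Longevity diet mouse LD_406 was lowest, and the diets overlapped only between SD_403, LD_442 and LD_513. Its log2 difference was -1.38 (SE 0.44, adjusted p = 0.129). Col5a1, in contrast with these 3 chains, differed little between the standard diet mice, from 9.16 to 13.9 CPM.

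Of the other type V chains, 0 of 2 passed, and they lay on either side of 0. Col5a2, which joins Col5a1 in the common form of type V collagen and lies 24.6 kb from Col3a1 on chromosome 1, had 0.896, 2.02, 1.34, 2.29 and 1.92 CPM in Longevity diet mice, against 0.919, 5.94, 4.39, 4.66 and 2.26 CPM in standard diet mice. Its lowest standard diet mouse, SD_403, lay at the level of the lowest Longevity diet mouse, LD_405, and the log2 difference of -0.88 (SE 0.47, adjusted p = 0.357) did not pass. Col5a3, a chain known from few tissues, had 10.5, 15.7, 19.8, 28.1 and 25.4 CPM in Longevity diet mice, against 25.6, 8.48, 16.9, 10.4 and 10.9 CPM in standard diet mice. Its highest levels were those of LD_513, SD_403 and LD_515, so the diets overlapped throughout, and the log2 difference was 0.49 (SE 0.33, adjusted p = 0.466). Col27a1, a fibrillar collagen of cartilage, had 4.84 to 14.1 CPM on the Longevity diet and 3.14 to 16.2 CPM on the standard diet with a log2 difference of 0.23 (SE 0.43, adjusted p = 0.815). Col11a2 and Col24a1 were under the minimum. Col11a2 had 0.231 to 1.68 CPM on the Longevity diet and 0.111 to 1.51 CPM on the standard diet. Col24a1 had 0 to 0.314 CPM on the Longevity diet and 0.285 to 0.751 CPM on the standard diet, with 4 of 5 Longevity diet mice below all standard diet mice, and did not pass in a fit without the minimum (adjusted p = 0.0952).

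Col14a1 fell and was the most abundant of the fibril-associated collagens. It encodes collagen XIV, which sits on collagen I fibrils and limits their lateral growth, and it lies at chr15:55171146-55384199, plus strand (mm39). Its levels were 19.6, 12.4, 30.8, 16.7 and 21.5 CPM in Longevity diet mice, against 54.9, 58.1, 53.6, 45.0 and 44.8 CPM in standard diet mice. The highest Longevity diet mouse, LD_442, still lay below the lowest standard diet mouse, SD_646. Means were 20.2 ± 6.83 CPM on the Longevity diet and 51.3 ± 6.04 CPM on the standard diet (SD, n = 5 each), 2.63-fold lower on the Longevity diet, with a log2 difference of -1.40 (SE 0.23, 95% confidence interval -1.88 to -0.91, adjusted p = 0.0102). Of the other fibril-associated chains tested, Col16a1 had a log2 difference of -0.92 (SE 0.39, adjusted p = 0.246), Col20a1 -0.98 (SE 0.53, adjusted p = 0.362) and Col12a1 0.16 (SE 0.40, adjusted p = 0.869). Col20a1 shares 741 bases with a long non-coding gene on the same strand, so reads could have been split between them. Col9a3 and Col22a1 were under the minimum. Col22a1, known from tissue junctions such as that of muscle and tendon, had 0 to 0.0809 CPM on the Longevity diet and 0 to 2.00 CPM on the standard diet, and all 5 Longevity diet libraries lay under the floor of 3 estimated reads, which covers counting error only.

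Col5a1 and Col14a1 passed with any 1 mouse left out, but not with LD_406 and LD_515 left out together. Both fell in each of the 10 fits that left out 1 mouse, where the highest adjusted p from limma was 0.0360 for Col5a1 and 0.0340 for Col14a1. Without LD_406 and LD_515 together, the 2 Longevity diet mice lowest in sinusoidal endothelial markers, the log2 difference was -1.24 for each gene, with adjusted p of 0.118 for Col5a1 and 0.105 for Col14a1, and 0 members and 17 genes of the whole table passed. With all 10 mice, 249 genes of the whole table passed. LD_515 (2.89 CPM) and LD_406 (2.91 CPM) also had the lowest Col5a1 levels, so leaving them out had to make that difference smaller. For Col14a1, LD_406 was lowest (12.4 CPM). Fewer mice also remained, so this fit cannot tell what the markers have to do with either gene. Over the 38 members, 30 were again below 0 without that pair, with a median of -0.42. Without SD_502, Col1a2 (adjusted p = 0.0371) and Efemp1 (0.0487) passed as well, which made 4 members. Col1a2 also passed without LD_405 (0.0414), and Col6a3 passed without SD_646 (0.0415). The first digit of a mouse's number has no stated meaning. Among mice whose number starts with 4, the log2 difference was -1.79 for Col5a1 and -1.48 for Col14a1. Among those whose number starts with 5, it was -1.52 and -1.45. SD_403 was the only standard diet mouse in the first split, so only effect sizes are given for it. The second split held LD_513, LD_515, SD_500, SD_501 and SD_502, and neither gene passed there (limma, adjusted p = 0.108 for Col14a1). SD_646 was in neither split.

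**Figure D3:**
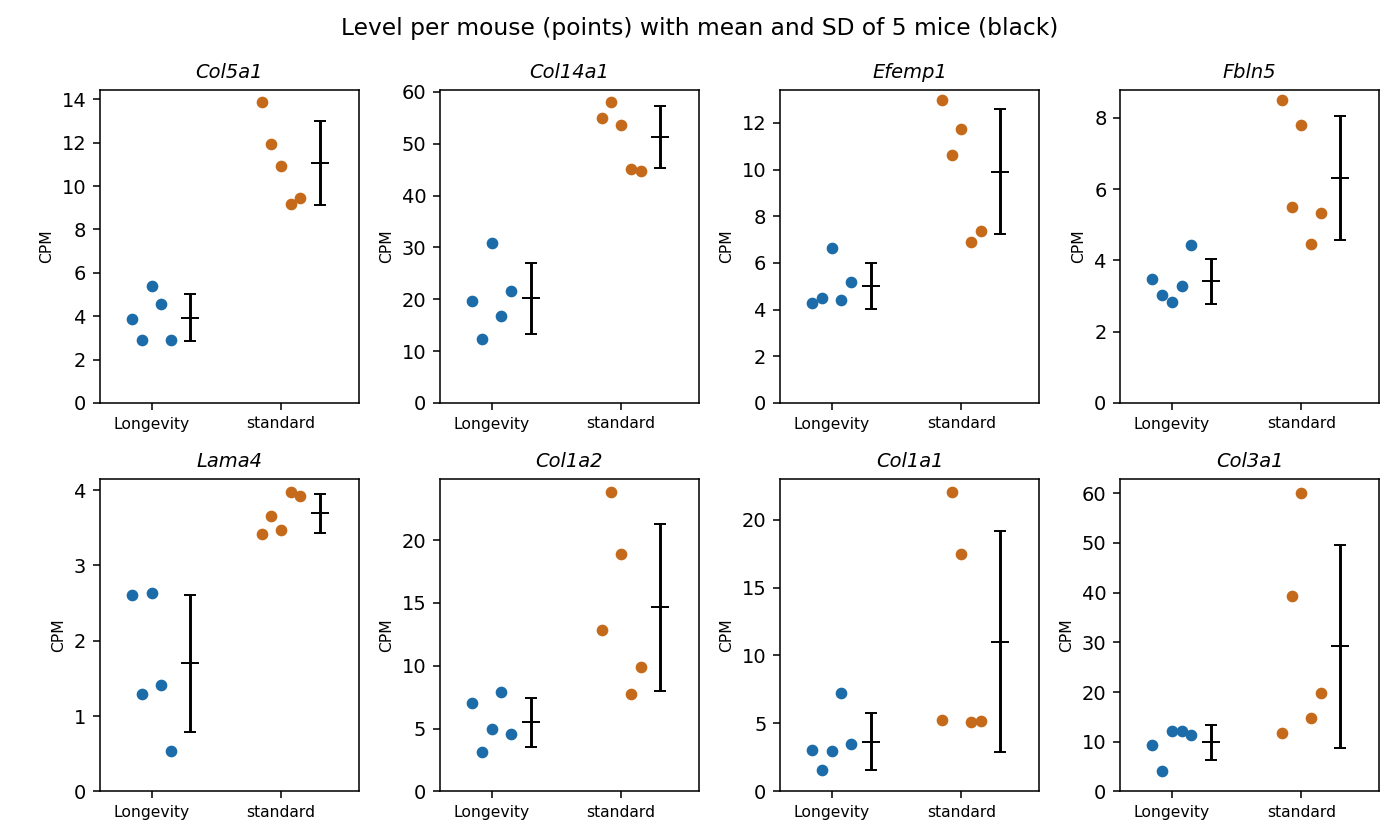
Level in each mouse (points, y axis, CPM, each panel from 0) of the 5 members whose diets did not overlap and of Col1a2, Col1a1 and Col3a1, with mean and SD of 5 mice in black. Longevity diet mice lie below all standard diet mice for Col5a1, Col14a1, Efemp1, Fbln5 and Lama4, while Col1a1 and Col3a1 are highest in SD_500 and SD_501.

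Collagen IV, the sheet-forming collagen of basement membranes, gave log2 differences below 0 in its 4 chains tested, and 0 of the 4 passed, with Col4a1 and Col4a2 under 0.05 by unadjusted p. Its common form contains Col4a1 and Col4a2, which sit head to head on chromosome 8, on opposite strands. Their gene bodies on mm39 (chr8:11248423-11362826, minus strand, and chr8:11362805-11499287, plus strand) overlap by 22 bases. The RefSeq windows of this shared promoter on GRCm38.p6 are shown, Col4a1 at chr8:11312777-11313076, minus strand, and Col4a2 at chr8:11312555-11312854, plus strand, with capitals marking the 78 bases that the 2 windows share, read on opposite strands (chr8:11312777-11312854).
Col4a1: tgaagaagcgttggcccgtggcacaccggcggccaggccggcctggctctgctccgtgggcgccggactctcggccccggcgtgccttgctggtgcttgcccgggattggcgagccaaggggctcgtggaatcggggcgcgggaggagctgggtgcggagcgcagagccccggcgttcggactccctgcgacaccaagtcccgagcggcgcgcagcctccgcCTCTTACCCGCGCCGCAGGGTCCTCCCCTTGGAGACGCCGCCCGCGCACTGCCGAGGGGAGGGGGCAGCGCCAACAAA
Col4a2: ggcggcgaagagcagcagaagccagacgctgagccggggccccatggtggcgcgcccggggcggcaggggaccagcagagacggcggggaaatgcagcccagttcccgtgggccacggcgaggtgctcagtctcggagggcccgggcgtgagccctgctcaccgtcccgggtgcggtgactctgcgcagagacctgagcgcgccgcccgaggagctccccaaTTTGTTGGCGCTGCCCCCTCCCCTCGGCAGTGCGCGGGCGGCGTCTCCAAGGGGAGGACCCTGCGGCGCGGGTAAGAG
Col4a1 had 8.22, 9.46, 14.5, 15.5 and 12.6 CPM in Longevity diet mice, against 18.7, 20.4, 23.0, 19.2 and 11.3 CPM in standard diet mice. Only SD_646 among standard diet mice lay within the Longevity diet range, and the log2 difference was -0.62 (SE 0.25, adjusted p = 0.213). Col4a2 had 10.1, 4.85, 10.2, 9.72 and 7.85 CPM in Longevity diet mice, against 14.1, 13.5, 15.3, 15.7 and 8.82 CPM in standard diet mice. SD_646 was again the exception, and the log2 difference was -0.67 (SE 0.25, adjusted p = 0.185). Col4a3, a chain of kidney and lung basement membranes, had 0.0385 to 0.903 CPM on the Longevity diet and 0.167 to 5.06 CPM on the standard diet, overlaps a long non-coding gene on the other strand, and had a mean of at least 1 CPM only on the standard diet (0.409 ± 0.321 CPM on the Longevity diet and 1.72 ± 1.99 CPM on the standard diet), so the minimum favoured a lower Longevity diet value. Its high mean came with 5.06 CPM in SD_502, and it had a log2 difference of -1.40 (SE 0.80, adjusted p = 0.388). Col4a5 had -0.32 (SE 0.57, adjusted p = 0.804). Col4a4, which lies 71 bases from Col4a3, was under the minimum, with 0 to 0.943 CPM on the Longevity diet and 0 to 2.05 CPM on the standard diet.

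Collagen VI forms beaded filaments around cells and is built from Col6a1, Col6a2 and one further chain such as Col6a3. Of its 4 chains tested 0 passed, with Col6a3 under 0.05 by unadjusted p. Col6a3 had 2.87, 2.55, 5.34, 5.50 and 3.19 CPM in Longevity diet mice, against 9.61, 10.8, 10.9, 8.36 and 2.95 CPM in standard diet mice. All standard diet mice but SD_646 lay above all Longevity diet mice, and the log2 difference was -1.05 (SE 0.37, adjusted p = 0.166). Col6a1 had 4.99, 4.16, 6.13, 7.76 and 4.39 CPM in Longevity diet mice, against 9.11, 9.09, 10.8, 4.41 and 3.99 CPM in standard diet mice. Col6a2, its neighbour on chromosome 10, had 4.02, 3.44, 3.34, 4.51 and 2.73 CPM in Longevity diet mice, against 3.83, 6.24, 7.78, 3.48 and 2.22 CPM in standard diet mice. In both chains SD_646 was the lowest of all 10 mice and SD_501 the highest. The log2 difference was -0.37 (SE 0.32, adjusted p = 0.580) for Col6a1 and -0.26 (SE 0.33, adjusted p = 0.715) for Col6a2. Col6a6 had -0.29 (SE 0.61, adjusted p = 0.832), and Col6a4 and Col6a5 were under the minimum.

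Col18a1 and Col15a1 encode the multiplexins, collagens of basement membrane zones whose ends are cleaved to endostatin and a related fragment. Col18a1 had 732, 703, 713, 751 and 571 CPM in Longevity diet mice, against 852, 786, 519.6, 1123 and 698 CPM in standard diet mice. The lowest and the highest of the 10 levels, in SD_501 and SD_502, were both on the standard diet. Col18a1 shares 8825 bases with Slc19a1, at 8.25 CPM, on the opposite strand. The log2 difference was -0.16 (SE 0.20, adjusted p = 0.7097). Col15a1 had 4.99, 5.94, 9.98, 12.4 and 9.04 CPM in Longevity diet mice, against 9.33, 9.31, 5.72, 15.7 and 5.58 CPM in standard diet mice. The diets overlapped, with a log2 difference of -0.08 (SE 0.33, adjusted p = 0.924). Of the transmembrane collagens only Col13a1 was tested, with a log2 difference of -0.0023 (SE 0.34, adjusted p = 0.998). Col25a1, a transmembrane collagen known from brain and motor neurons, was under the minimum. It had 0.0512, 0, 0.0393, 0 and 0.154 CPM in Longevity diet mice, against 1.38, 0.0219, 1.00, 1.70 and 2.68 CPM in standard diet mice. Apart from SD_500, standard diet mice stood above all Longevity diet mice, 4 of which were under the floor of 3 estimated reads, and the gene did not pass in a fit without the minimum (adjusted p = 0.0661). Col17a1, Col23a1, the short-chain collagens Col8a1, Col8a2 and Col10a1, and the anchoring fibril collagen Col7a1 were also under the minimum, at 0 to 1.18 CPM over the 10 mice.

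Laminins are trimers of an alpha, a beta and a gamma chain, and the alpha chain sets which receptors bind. The 2 alpha chains of vessel walls stood on opposite sides of 0. Lama4, the alpha chain of endothelial basement membranes, had 2.61, 1.29, 2.63, 1.42 and 0.539 CPM in Longevity diet mice, against 3.42, 3.66, 3.47, 3.98 and 3.92 CPM in standard diet mice. Every Longevity diet mouse lay below every standard diet mouse, LD_515 was lowest, and the standard diet values were close together. Its log2 difference of -1.25 (SE 0.39, adjusted p = 0.118) did not pass. Lama5, the alpha chain of epithelial and mature vessel basement membranes, had 2.61, 4.04, 2.32, 4.86 and 6.73 CPM in Longevity diet mice, against 2.74, 1.07, 2.72, 2.80 and 1.88 CPM in standard diet mice. LD_406, LD_513 and LD_515 lay above all standard diet mice, and the log2 difference of 0.82 (SE 0.37, adjusted p = 0.270) did not pass. Lama1, the alpha chain of the early embryo, had a log2 difference of -0.82 (SE 0.37, adjusted p = 0.274). Lama2, the alpha chain of muscle, was under the minimum. It had 0.742, 0.202, 0.864, 1.30 and 0.693 CPM in Longevity diet mice, against 0.175, 1.18, 1.17, 0.976 and 0.199 CPM in standard diet mice, with the diets overlapping throughout. Lama3 was under the minimum, at up to 0.376 CPM.

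Lamb1 and Lamb2 are the 2 common beta chains. Lamb1 had 4.92, 3.88, 4.75, 5.24 and 4.54 CPM in Longevity diet mice, against 6.39, 8.39, 8.08, 9.89 and 3.81 CPM in standard diet mice. All standard diet mice but SD_646 lay above all Longevity diet mice, with a log2 difference of -0.58 (SE 0.27, adjusted p = 0.286). Lamb2 had 6.96, 4.21, 3.93, 4.46 and 2.69 CPM in Longevity diet mice, against 5.95, 4.10, 5.11, 5.61 and 4.63 CPM in standard diet mice. The highest and the lowest level were both on the Longevity diet, in LD_405 and LD_515, and the log2 difference was -0.24 (SE 0.27, adjusted p = 0.675). Lamb3, the beta chain of laminin 332 in epithelia, had a log2 difference of 0.79 (SE 0.41, adjusted p = 0.336). Its gene body spans Hsd11b1, at 684 CPM, and G0s2, at 177 CPM, on the opposite strand, and whether the counting used strand is not given, so its reads are uncertain. Lamc1, the gamma chain of most laminins, had 6.81, 12.3, 17.1, 16.5 and 17.4 CPM in Longevity diet mice, against 11.0, 11.1, 10.8, 15.6 and 8.20 CPM in standard diet mice. LD_405 was lowest and LD_442, LD_513 and LD_515 were highest of the 10 mice, and the log2 difference was 0.26 (SE 0.28, adjusted p = 0.666). Lamc3 was under the minimum.

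The linkers of the basement membrane gave 0 changed genes of 3, with Nid2 lower by unadjusted p under 0.05. Hspg2, which encodes perlecan, had 37.1, 38.5, 55.7, 52.5 and 31.1 CPM in Longevity diet mice, against 39.2, 38.1, 30.4, 64.9 and 47.4 CPM in standard diet mice. The diets overlapped, with a log2 difference of -0.02 (SE 0.23, adjusted p = 0.973) and a 95% confidence interval of -0.52 to 0.48. Nid1, one of 2 nidogens that bridge laminin and collagen IV, had 2.94, 12.0, 21.2, 22.4 and 25.7 CPM in Longevity diet mice, against 14.2, 11.5, 20.0, 15.9 and 7.58 CPM in standard diet mice. LD_405 was lowest and LD_515 highest, so the spread on the Longevity diet was wider than any difference between the diets, with a log2 difference of 0.03 (SE 0.50, adjusted p = 0.984). Nid2, the other nidogen, had 0.952, 3.01, 3.43, 5.08 and 2.89 CPM in Longevity diet mice, against 10.3, 6.49, 5.56, 4.89 and 4.77 CPM in standard diet mice. Of the Longevity diet mice, LD_513 alone lay within the standard diet range, and the log2 difference was -1.14 (SE 0.39, adjusted p = 0.153). Nid2 shares 437 bases with Rtraf, at 46.2 CPM, on the opposite strand.

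Fn1, which encodes the fibronectin of plasma and of tissue, had 572, 806, 1263, 1258 and 969 CPM in Longevity diet mice, against 1161, 1143, 803, 2534 and 946 CPM in standard diet mice. SD_502 stood far above the other 9 mice and LD_405 was lowest, and the log2 difference was -0.37 (SE 0.30, adjusted p = 0.556). Tnc, a matrix protein of injured tissue, was under the minimum, with 0 to 1.42 CPM on the Longevity diet and 0.361 to 2.45 CPM on the standard diet. Among elastic fibre proteins, Efemp1 (fibulin-3) had 4.28, 4.49, 6.64, 4.43 and 5.19 CPM in Longevity diet mice, against 13.0, 10.6, 11.7, 6.91 and 7.35 CPM in standard diet mice. No value overlapped between the diets, though LD_442 and SD_502 lay close together. Means were 5.00 ± 0.979 CPM on the Longevity diet and 9.91 ± 2.68 CPM on the standard diet, with a log2 difference of -0.95 (SE 0.24, adjusted p = 0.0695). Fbln5 (fibulin-5), which places elastin on microfibrils, had 3.48, 3.03, 2.83, 3.27 and 4.42 CPM in Longevity diet mice, against 8.49, 5.50, 7.80, 4.46 and 5.32 CPM in standard diet mice. The diets did not overlap, by a narrow margin between LD_515 and SD_502, and the log2 difference was -0.85 (SE 0.25, adjusted p = 0.110). Eln, the elastin gene, had 1.38, 0.849, 1.06, 2.05 and 1.00 CPM in Longevity diet mice, against 2.25, 3.13, 6.75, 1.55 and 2.10 CPM in standard diet mice. SD_501 was highest, LD_513 alone lay above the lowest standard diet mouse, and the log2 difference was -1.12 (SE 0.41, adjusted p = 0.177). Fbln2 had 0.923 to 1.85 CPM on the Longevity diet and 0 to 6.75 CPM on the standard diet with a log2 difference of 0.37 (SE 0.88, adjusted p = 0.857). Its mean CPM lay the other way, 1.501 ± 0.388 CPM on the Longevity diet and 2.37 ± 2.65 CPM on the standard diet, where SD_403 is listed at 0. Efemp2 (fibulin-4), which shares 173 bases with Mus81 on the opposite strand, had -0.46 (SE 0.23, adjusted p = 0.310). Fbln1 was under the minimum.

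Partner and alternative chains were also compared as ratios of CPM + 0.1 within each mouse. Such a ratio depends on the scaling of a library only through the added 0.1 CPM, which weighs most where a chain is low. The 8 ratios pair chains that assemble together or stand in for each other, and were chosen with earlier results of these data known. They were tested by a two-sided exact permutation test over all 252 ways to split the mice between diets, whose smallest p is 0.00794. After adjustment over the 8, 0 of 8 passed. A single ratio at that smallest p cannot pass alone, as its adjusted p is then 0.0635, so this count says little about any 1 ratio. The log2 ratio of Lama5 to Lama4 was 1.30 ± 1.47 on the Longevity diet and -0.77 ± 0.58 on the standard diet (SD, n = 5 each), a difference of 2.07 (SE 0.71, exact permutation p = 0.00794, adjusted p = 0.0635). It was -0.18 to 3.42 in Longevity diet mice and -1.68 to -0.31 in standard diet mice, and so did not overlap. Without LD_406 and LD_515 the difference was 1.28 (exact permutation p = 0.0179, adjusted p = 0.143). That p is the smallest the test allows without the pair, so neither p-value can be set against that of all mice. The log2 ratio of Nid1 to Nid2 was 2.26 ± 0.61 on the Longevity diet and 1.09 ± 0.62 on the standard diet, a difference of 1.17 (SE 0.39, exact permutation p = 0.0317, adjusted p = 0.127). For the chains of collagens I, III, IV and VI the differences were smaller than their standard errors. The difference in log2 ratio was -0.06 (SE 0.29) for Col1a1 to Col1a2, 0.03 (SE 0.29) for Col3a1 to Col1a1, 0.06 (SE 0.22) for Col4a1 to Col4a2 and -0.10 (SE 0.20) for Col6a1 to Col6a2. It was -0.62 (SE 0.62) for Col5a1 to Col5a2 and -0.34 (SE 0.31) for Lamb1 to Lamb2.

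**Figure D4:**
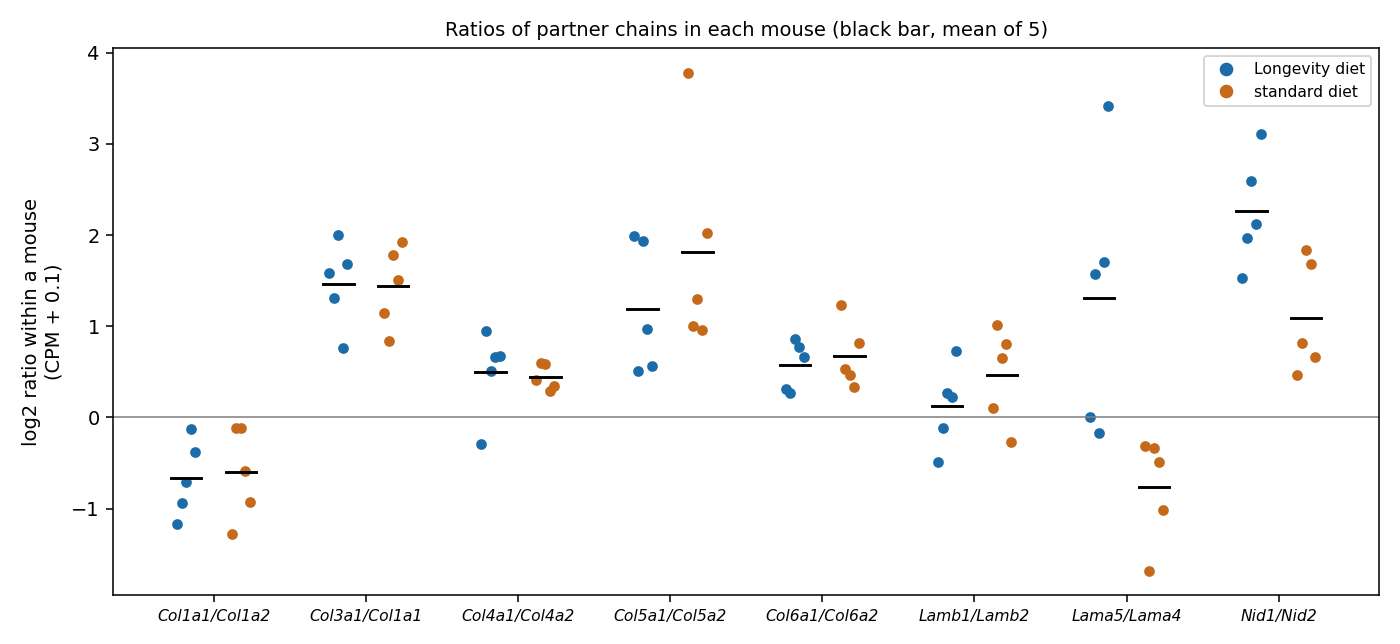
Log2 ratio of 8 chain pairs in each mouse (y axis, log2 ratio of CPM + 0.1, points) with Longevity diet mice left of standard diet mice in each pair. Lama5 to Lama4 separates the diets without overlap, and the collagen I, III, IV and VI pairs overlap.

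The make-up of the matrix RNA is given as a description, with no test. Per kb of transcript and leaving out Fn1 and Col18a1, fibril-associated collagens held 10.5 ± 2.53% of the remaining members' level on the Longevity diet and 16.5 ± 2.23% on the standard diet. Fibrillar collagens held 21.8 ± 2.68% on the Longevity diet and 25.0 ± 5.95% on the standard diet. Linkers held 16.0 ± 3.12% on the Longevity diet and 11.4 ± 2.51% on the standard diet. Laminin beta chains held 7.59 ± 2.18% on the Longevity diet and 4.99 ± 1.198% on the standard diet. A share depends on the level of all other roles, and these larger shares did not come with larger sums. Linkers summed to 62.9 ± 17.1 CPM on the Longevity diet and 64.3 ± 12.4 CPM on the standard diet. Laminin beta chains, which include Lamb3 with its uncertain reads, summed to 15.3 ± 2.33 and 16.4 ± 4.15 CPM. Collagen IV held 8.82 ± 0.337% on the Longevity diet and 9.15 ± 1.37% on the standard diet, so its share differed by less than the spread between standard diet mice.

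Genes that make, process, bind or break down these proteins were followed in 7 lists of 92 genes, 68 of which were tested, and 1 fell and 0 rose. Their median log2 difference was -0.31, and by unadjusted p under 0.05 17 of the 68 were lower and 1, Bcam, was higher. Over all 13157 genes the median was -0.11, 11.6% were lower and 5.92% higher by unadjusted p, and 1.23% fell. The gene that fell was Serpinh1, which encodes HSP47, the chaperone that binds folded procollagen in the endoplasmic reticulum. It had 8.24, 5.82, 8.41, 6.42 and 6.50 CPM in Longevity diet mice, against 12.4, 22.1, 18.1, 12.0 and 18.2 CPM in standard diet mice. The diets did not overlap, and the means were 7.08 ± 1.17 CPM on the Longevity diet and 16.6 ± 4.30 CPM on the standard diet, with a log2 difference of -1.19 (SE 0.22, adjusted p = 0.0179). It did not pass without LD_406 (adjusted p = 0.0624), without LD_515 (0.0529), without SD_500 (0.0573) or without LD_406 and LD_515 together (0.195), where its log2 difference was -1.13, -1.17, -1.08 and -1.07. Nor did it pass under quantile normalization (adjusted p = 0.0532, log2 difference -1.05) or with the leading digit of the mouse number as a covariate (adjusted p = 0.0993, log2 difference -1.13). The rest of the 14 genes tested for collagen synthesis in the endoplasmic reticulum had no common direction, with 8 above and 6 below 0 in all and a median of 0.06. P4hb, a subunit of prolyl 4-hydroxylase that most secretory proteins also use, had 0.27 (SE 0.15, adjusted p = 0.373), and P3h3, a prolyl 3-hydroxylase, -0.73 (SE 0.27, adjusted p = 0.184). Of 11 genes tested for procollagen processing and crosslinking 10 were below 0, with a median of -0.46 and 0 changed. Among those below 0, Loxl1 averaged 0.846 CPM on the Longevity diet and 1.89 CPM on the standard diet, and Loxl4 0.606 and 2.81 CPM. Both reached the minimum of 1 CPM through the standard diet alone, which favoured a lower Longevity diet value. The 3 of smallest p were Pxdn, the peroxidase that crosslinks collagen IV (log2 difference -0.72, SE 0.26, adjusted p = 0.168), the lysyl oxidase Loxl2 (log2 difference -0.98, SE 0.38, adjusted p = 0.195) and the procollagen proteinase enhancer Pcolce (log2 difference -0.72, SE 0.28, adjusted p = 0.202).

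Receptors of collagens and laminins gave 0 changed genes of 9 and a median of -0.15. Itga1, the alpha 1 integrin that binds collagen, had 17.8 ± 6.11 CPM on the Longevity diet and 29.4 ± 4.83 CPM on the standard diet with a log2 difference of -0.78 (SE 0.25, adjusted p = 0.133). Its values did not overlap, by a narrow margin between LD_442 (24.3 CPM) and SD_501 (24.4 CPM). Of the 68 genes tested in the 7 lists, 3 had every Longevity diet value below every standard diet value, where 3.49% of all genes did. Bcam, a receptor of laminin alpha 5, had 8.24 ± 1.84 CPM on the Longevity diet and 4.08 ± 1.92 CPM on the standard diet with a log2 difference of 1.13 (SE 0.37, adjusted p = 0.133). Ddr2, a receptor of fibrillar collagen, had -0.79 (SE 0.38, adjusted p = 0.300). Fibronectin receptors gave 0 of 5 and a median of -0.63, led by Itgb3 (log2 difference -0.82, SE 0.26, adjusted p = 0.133), Itga4 (log2 difference -1.02, SE 0.41, adjusted p = 0.215) and Itga8 (log2 difference -0.63, SE 0.44, adjusted p = 0.474). Other basement membrane and small matrix proteins gave 0 of 13 and a median of -0.43. Dcn, the proteoglycan decorin that coats collagen fibrils, had 123 ± 26.6 CPM on the Longevity diet and 216 ± 44.7 CPM on the standard diet with a log2 difference of -0.81 (SE 0.21, adjusted p = 0.0680), followed by Hmcn1 (hemicentin-1, log2 difference -2.21, SE 0.64, adjusted p = 0.103) and Bgn (biglycan, log2 difference -0.62, SE 0.20, adjusted p = 0.126). Microfibril genes gave 0 of 7 and a median of -0.47, led by Ltbp2 (log2 difference -1.34, SE 0.38, adjusted p = 0.0979), Emilin1 (log2 difference -0.47, SE 0.17, adjusted p = 0.185) and Fbn1 (fibrillin-1, log2 difference -0.72, SE 0.35, adjusted p = 0.310). Hmcn1 averaged 0.473 CPM on the Longevity diet and 2.03 CPM on the standard diet, and Ltbp2 0.857 and 2.29 CPM. Both reached the minimum of 1 CPM through the standard diet alone, so the minimum favoured a lower Longevity diet value. Matrix breakdown and its inhibitors gave 0 of 9 and a median of -0.28, led by the metalloproteinases Mmp19 (log2 difference -0.52, SE 0.17, adjusted p = 0.142) and Mmp2 (log2 difference -1.28, SE 0.49, adjusted p = 0.198) and the inhibitor Timp2 (log2 difference -0.28, SE 0.16, adjusted p = 0.379).

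Most markers of stellate and endothelial cells had log2 differences below 0, as had 60.4% of all genes tested. Of all genes tested, 1.23% fell and 11.6% were lower by unadjusted p under 0.05. The direction was not particular to those cells. Of the markers tested, 5 of 6 for Kupffer cells, 3 of 3 for neutrophils and 3 of 3 for smooth muscle were also below 0. So were 3 of 4 for portal fibroblasts and mesothelium and 2 of 4 for cholangiocytes. Of 12 stellate cell markers, 12 were tested, 11 were below 0 and 2 fell, Colec10 (log2 difference -1.19, SE 0.24, adjusted p = 0.0245) and Pdgfrb (log2 difference -1.36, SE 0.28, adjusted p = 0.0290). Their summed level was 264 to 555 CPM on the Longevity diet and 487 to 630 CPM on the standard diet, with LD_405 alone inside the standard diet range. Ecm1 alone gave 414 of the 555 CPM in LD_405. The other 11 markers, a split made after seeing the data, summed to 141 to 225 CPM on the Longevity diet and 275 to 334 CPM on the standard diet, without overlap, and LD_405 was lowest. Of 8 sinusoidal endothelial markers, 8 were below 0, 7 by unadjusted p under 0.05, and 0 passed, and their sum was 98.3 to 231 CPM on the Longevity diet and 251 to 332 CPM on the standard diet, without overlap. LD_515 (98.3 CPM) and LD_406 (114 CPM) were lowest. Lyve1, among these 8, averaged 0.765 CPM on the Longevity diet and 2.99 CPM on the standard diet. It reached the minimum of 1 CPM through the standard diet alone, which favoured a lower Longevity diet value. The 7 other endothelial markers summed to 53.2 to 104 CPM on the Longevity diet and 88.3 to 134 CPM on the standard diet. Smooth muscle markers (8.05 to 12.6 CPM on the Longevity diet and 7.00 to 26.6 CPM on the standard diet), portal fibroblast and mesothelial markers (8.31 to 17.3 CPM on the Longevity diet and 5.76 to 21.9 CPM on the standard diet) and cholangiocyte markers (27.5 to 47.8 CPM on the Longevity diet and 27.2 to 59.3 CPM on the standard diet) overlapped. Of 7 hepatocyte markers, 4 were below 0 and 3 above, with a median of -0.0073, and 1 fell, the urea cycle enzyme gene Cps1. The albumin gene Alb (log2 difference 0.68, SE 0.18) and Apoa1 (0.61, SE 0.28) were higher by unadjusted p under 0.05. Neither passed (limma, adjusted p = 0.0831 and 0.274). The 7 summed to 141695 to 195351 CPM on the Longevity diet and 94942 to 142746 CPM on the standard diet. Most of that was Alb, at 124794 ± 20701 CPM on the Longevity diet and 79126 ± 19773 CPM on the standard diet. Kupffer cell markers summed to 124 to 461 CPM on the Longevity diet and 238 to 431 CPM on the standard diet, and neutrophil markers, of which S100a8 fell, to 1.82 to 6.05 CPM on the Longevity diet and 4.68 to 78.8 CPM on the standard diet. S100a8 averaged 0.343 ± 0.212 CPM on the Longevity diet and 13.1 ± 15.5 CPM on the standard diet, and so also reached the minimum through the standard diet alone. Of the markers in these lists, only Gli1 was not in the table. The part of cell makeup, depth and the albumin share in the differences of Col5a1, Col14a1 and the other members was not tested.

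**Figure D5:**
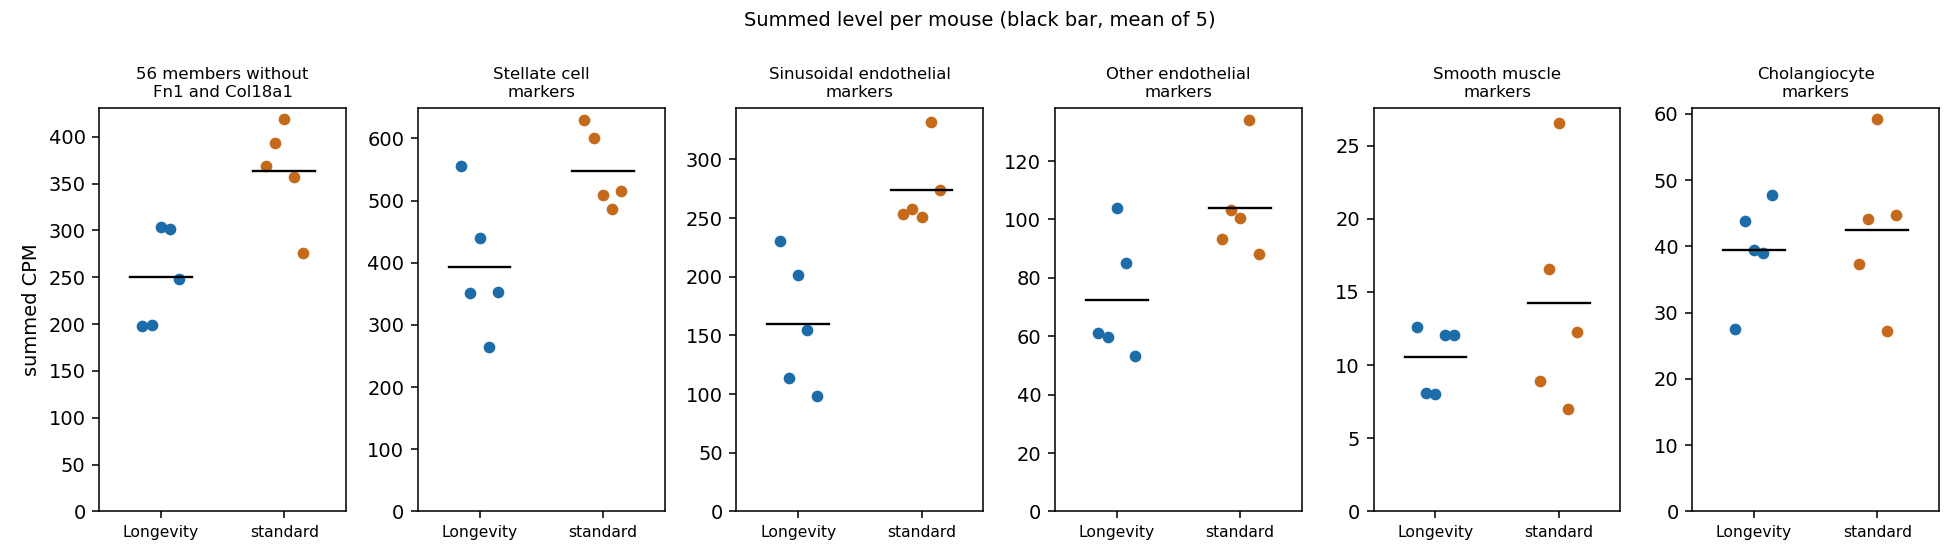
Summed level in each mouse (points, y axis, CPM from 0; black bar, mean of 5) of the 56 members other than Fn1 and Col18a1 and of the markers of 5 cell types. The sinusoidal endothelial sums do not overlap between the diets, at 98.3 to 231 CPM on the Longevity diet and 251 to 332 CPM on the standard diet, while the cholangiocyte sums do.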

How the data were processed

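Liver RNA of 10 mice was sequenced after poly-A selection, per the labels' protocols. Whether each library kept strand is not stated per sample. The deposited table holds CPM per mouse (reads per 1000000 on its 19414 genes) to which the authors added 0.0001, as the column totals show, and that was subtracted. STAR, Partek and mm39 are named in the submitters' processing notes without versions, and the quantifier, annotation and filters are not given in the sources used here. Low values rise in steps that gave estimated depths of 24.7 to 45.7 M reads (M, 1000000), with 84.5% to 87.9% of values under 100 reads within 0.1 of a whole read, so no count model was used. Reads are not independent molecules.

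Genes averaging 1 CPM or more across all mice were tested on log2(CPM + 0.1) in R 4.3.3 by limma 3.58.1 with statmod 1.5.0, using a trended prior and robust moderation, two-sided, with diet as the only term and a threshold of 0.05 on the adjusted p. The 0.1 CPM added before taking log2 makes differences of low genes smaller. The approach was also run on simulated data with independent normal noise for each gene. Those data hold no effect shared by the genes of a mouse, such as cell makeup or depth, so they cannot test for one. Mice have separate numbers in the labels, and are taken as separate animals. Gene positions are on mm39 as deposited, with ends 1 below the printed stop. Transcript lengths come from GENCODE M21 and promoter windows from RefSeq (GRCm38.p6), which had windows for 42 of 58 members.

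The members, roles, ratios and lists were chosen with earlier results of these data known. Each mouse's values are given for members that changed, members whose diets did not overlap, the 5 most abundant per kb and a set list of chains, and each companion list is named by its changed genes and the 3 of smallest p. Alternatives covered pseudocounts, minimum levels, scalings, weights, the leading digit of the mouse number and left-out mice. The fits within each leading digit and the stellate marker sum without Ecm1 were added after seeing the data. Some members are not reported here by name.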

Additional observations from a re-analysis of the deposited data

Results flagged for a closer look

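Each mouse's level within its diet was examined for 27 genes, 54 groups of 5 values in all, for a highest or lowest mouse set far apart from the next. Chance marks about 1 in 20 such groups, and 2 were marked. Fn1 was 2534 CPM in SD_502, far above the other standard diet mice, of which the highest was SD_403 with 1161 CPM. Col18a1 was 571 CPM in LD_515, below the other Longevity diet mice, of which the lowest was LD_406 with 703 CPM. Both genes belong to the most abundant members, and neither changed with diet.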

How the results depend on the processing

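Col5a1 and Col14a1 fell in 20 of 21 alternatives, with log2 differences of -1.63 to -1.24 for Col5a1 and -1.56 to -1.24 for Col14a1. Without LD_406 and LD_515, 0 members passed, and with a weight per library 6 fell, adding Col1a2, Efemp1, Fbln5 and Lama4 (805 genes of the whole table passed there). Leaving out 1 mouse gave 2 to 4 members that fell. The members' median log2 difference stayed between -0.67 and -0.35. Of the companion lists 7 genes fell with library weights, and 0 under quantile normalization, with the leading digit of the mouse number as a covariate and without LD_406 and LD_515, and 0 to 3 with 1 mouse left out. The cause was not tested.

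Genes and ratios that had not passed, and lay near 0, changed sign. Col15a1 was 0.033 with median-of-ratios scaling, 0.13 under quantile normalization, 0.093 with library weights, 0.0072 without LD_406 and LD_515 and -0.23 to 0.14 with 1 mouse left out. Hspg2 was 0.092 with median-of-ratios scaling, 0.11 with library weights, 0.013 with the leading digit, 0.16 without the pair and -0.14 to 0.13 with 1 mouse left out. Nid1 was -0.016 with voom weights, -0.23 without the pair and -0.20 to 0.57 with 1 mouse left out. Under quantile normalization Col6a2 was 0.016 and Lamb2 0.039. With a pseudocount of 1 CPM the ratio difference was 0.0096 for Col1a1 to Col1a2 and -0.094 for Col3a1 to Col1a1, and without the pair -0.15 for Col4a1 to Col4a2. With 1 mouse left out it was -0.23 to 0.064 for Col1a1 to Col1a2, -0.12 to 0.21 for Col3a1 to Col1a1, -0.056 to 0.26 for Col4a1 to Col4a2 and -0.19 to 0.034 for Col6a1 to Col6a2. No paired analysis was possible because no mouse number occurs on both diets. Genes near 1 CPM rest on few reads, and the deeper standard diet libraries measure them more finely.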
